A study of Mus musculus with 2 samples.

Results

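The heat shock chaperones described here are 10 mouse genes, found by symbol among the 27998 genes of the count tables: Hspa1a, Hspa1b, Hspb1, Hsph1, Dnajb1, Hspa8, Hsp90aa1, Hsp90ab1, Hspd1 and Hspe1. All 10 were present, and they were followed across the endothelial and other cell classes of 2 single-cell RNA libraries of mouse lung. The KO library and the WT library were each made from freshly taken lungs of C57BL/6J mice aged 10 to 12 weeks, with the 10x Genomics 3' v3 chemistry. Dissociation used dispase for 1 hour, followed by DNase for 30 minutes, and cells carrying VE-cadherin but not CD45 were sorted. The series title names a model of hereditary hemorrhagic telangiectasia type 2, a disease of blood vessels known to arise from loss of ACVRL1, a receptor of endothelial cells. The deleted gene, the promoter of any Cre and the number of animals in each library are not given in the sources used here.

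With 1 library in each group, no difference between KO and WT has a replicate check, and no p-value is given. Levels are counts of unique molecular identifiers (UMIs) summed over the cells of a class, scaled by all UMIs of that class (counts per 1000000, CPM), with exact Poisson 95% intervals. A gene was called lower or higher in KO at a difference of at least 1.5-fold with intervals that did not overlap, in classes with at least 50 cells in each library and for genes whose KO and WT levels averaged 10 CPM or more. All intervals cover counting error only. In a sum over cells, fewer cells with a transcript and less transcript per cell cannot be told apart, and for that reason shares of cells are given as well.

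The filters left 1315 KO cells and 2729 WT cells, with medians of 8646 and 5435 UMIs per cell. The sort was for endothelial cells, and the labels give that cell type for both libraries. Endothelial clusters made up 524 KO cells and 1557 WT cells, and each of those large enough to compare held all 13 endothelial markers at 10 CPM or more. Cells with the markers of alveolar type 2 (AT2) cells, the surfactant-making cells of the alveolus, numbered 594 in KO and 826 in WT, and their summed endothelial markers reached 141 CPM in KO and 251 CPM in WT. The sexes of the cells also differed between the libraries: 757 KO cells had UMIs of Y-linked genes alone and 199 had Xist alone, whereas no WT cell had Y-linked UMIs alone in the named classes and endothelial clusters, and 2386 WT cells had Xist alone. Of the 12 barcodes present in both libraries, 6 were among the cells kept.

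Enough cells in both libraries were found for 6 classes. They were general capillary (gCap)-like cells, with 158 KO cells and 493 WT cells, aerocyte (aCap)-like cells, with 68 and 410, an unnamed endothelial cluster 4, with 77 and 327, AT2-like cells, fibroblast-like cells, with 91 and 136, and smooth muscle-like cells, with 54 and 84. Cluster 4 was led by haemoglobin genes and had few UMIs per cell, with medians of 2661 in KO and 2734 in WT. Arterial-like cells (43 and 224), venous-like cells (14 and 50) and pericyte-like cells (21 and 23) are described by level only. Endothelial cluster 7, led by Igfbp3, held 123 KO cells and 1 WT cell and therefore has no WT level.

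Heat shock proteins are chaperones: they hold unfolded proteins, refold them or pass them on for degradation. HSP70 proteins bind short unfolded stretches, J-domain proteins deliver the substrate and trigger the ATP cycle, HSP110 proteins exchange the nucleotide, HSP90 proteins finish the folding of kinases and receptors, small heat shock proteins keep unfolded proteins from aggregating, and the chaperonin of mitochondria folds proteins inside a closed chamber. Under heat or other protein stress the transcription factor HSF1 binds heat shock elements, inverted repeats of GAA and TTC, and raises the inducible members, while others are made in all cells at all times.

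Hspa1a and Hspa1b encode the stress-inducible HSP70 and lie side by side on the minus strand of chromosome 17, Hspa1a at chr17:34969190-34972156 and Hspa1b at chr17:34956436-34959238 (GRCm38, GENCODE M21), 9951 bases apart and each with 1 exon. Hspb1 lies on the plus strand at chr5:135887919-135889563. The genes of the mitochondrial pair, Hspd1 and Hspe1, point away from each other on chromosome 1 and overlap at their starts. The 150 bases before the annotated start of 4 members follow, because Hspa1a, Hspa1b and Hspb1 are the members that were lower in KO capillary cells and Hspe1 is a member with a longer heat shock element that was not called in any class. They are RefSeq sequences on GRCm38.p6, 5' to 3' on the gene's own strand, and capitals mark heat shock element matches.
Hspa1a: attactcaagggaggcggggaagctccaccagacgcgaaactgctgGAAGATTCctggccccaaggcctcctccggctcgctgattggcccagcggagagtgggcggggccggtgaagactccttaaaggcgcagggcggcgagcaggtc
Hspa1b: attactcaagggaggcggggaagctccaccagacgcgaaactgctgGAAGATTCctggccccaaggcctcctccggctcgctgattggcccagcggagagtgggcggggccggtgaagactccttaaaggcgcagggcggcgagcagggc
Hspb1: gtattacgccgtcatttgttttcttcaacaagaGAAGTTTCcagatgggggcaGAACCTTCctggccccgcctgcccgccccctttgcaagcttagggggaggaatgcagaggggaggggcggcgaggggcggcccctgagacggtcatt
Hspe1: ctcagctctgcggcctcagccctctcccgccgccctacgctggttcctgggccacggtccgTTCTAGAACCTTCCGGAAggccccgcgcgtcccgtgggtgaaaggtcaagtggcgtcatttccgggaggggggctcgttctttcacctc

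These windows are chr17:34972157-34972306 (minus strand), chr17:34959239-34959388 (minus), chr5:135887769-135887918 (plus) and chr1:55087998-55088147 (plus). The motifs searched, on both strands, were GAANNTTC and TTCNNGAA, each its own reverse complement, and the 3-unit heat shock element, in which 2 free bases and another GAA or TTC unit, in turn, follow either of them. Its forms are reverse complements of each other and contain the 2-unit forms. Hspa1a and Hspa1b each had 1 GAANNTTC, beginning 104 bases before the start, and their windows had the same base at 149 of 150 positions. Hspb1 had 2, beginning 117 and 97 bases before the start. Hspe1 had a 3-unit match beginning 89 bases before its start. A window of Hspd1 on the other strand, chr1:55087883-55088182, holds the same element. The Hspd1 window at the annotated start of the gene, chr1:55088194-55088493, has no match of either kind. A promoter window of 300 bases was found for 7 of the 10 members, namely those 5, Hsph1 and Dnajb1. Of these 7 members, 6 had a 2-unit match and 3 (Hspd1, Hspe1 and Hsph1) a 3-unit match. Hspd1, Hsph1 and Dnajb1 have more than 1 window each, and a member was counted if any of its windows matched. Among 32851 mouse promoter windows of the same length, 15.1% had a 2-unit match and 0.603% a 3-unit match, counted per window and not per gene.

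The inducible HSP70 genes were the members with the widest range across cell types. Venous-like cells had the highest level of both in each library, with intervals apart from the next class. Hspa1a reached 927 CPM in KO venous-like cells, of which 5 of the 14 cells held 72.2%, and 1894 CPM in WT venous-like cells. In WT the order below was smooth muscle-like cells, then pericyte-like, arterial-like and fibroblast-like cells, whose neighbouring intervals overlapped, then gCap-like cells, then endothelial cluster 4 and aCap-like cells, which overlapped, and last AT2-like cells. In KO, arterial-like, smooth muscle-like, pericyte-like and fibroblast-like cells followed the venous-like cells with overlapping neighbours, and the capillary and AT2-like classes formed a lower group that also overlapped. The highest WT class had 34.3 times the Hspa1a level of the lowest of 9 classes. For Hspa8, the constitutive HSP70 of the cytosol, this ratio was 1.78 in WT.

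**Figure D1:**
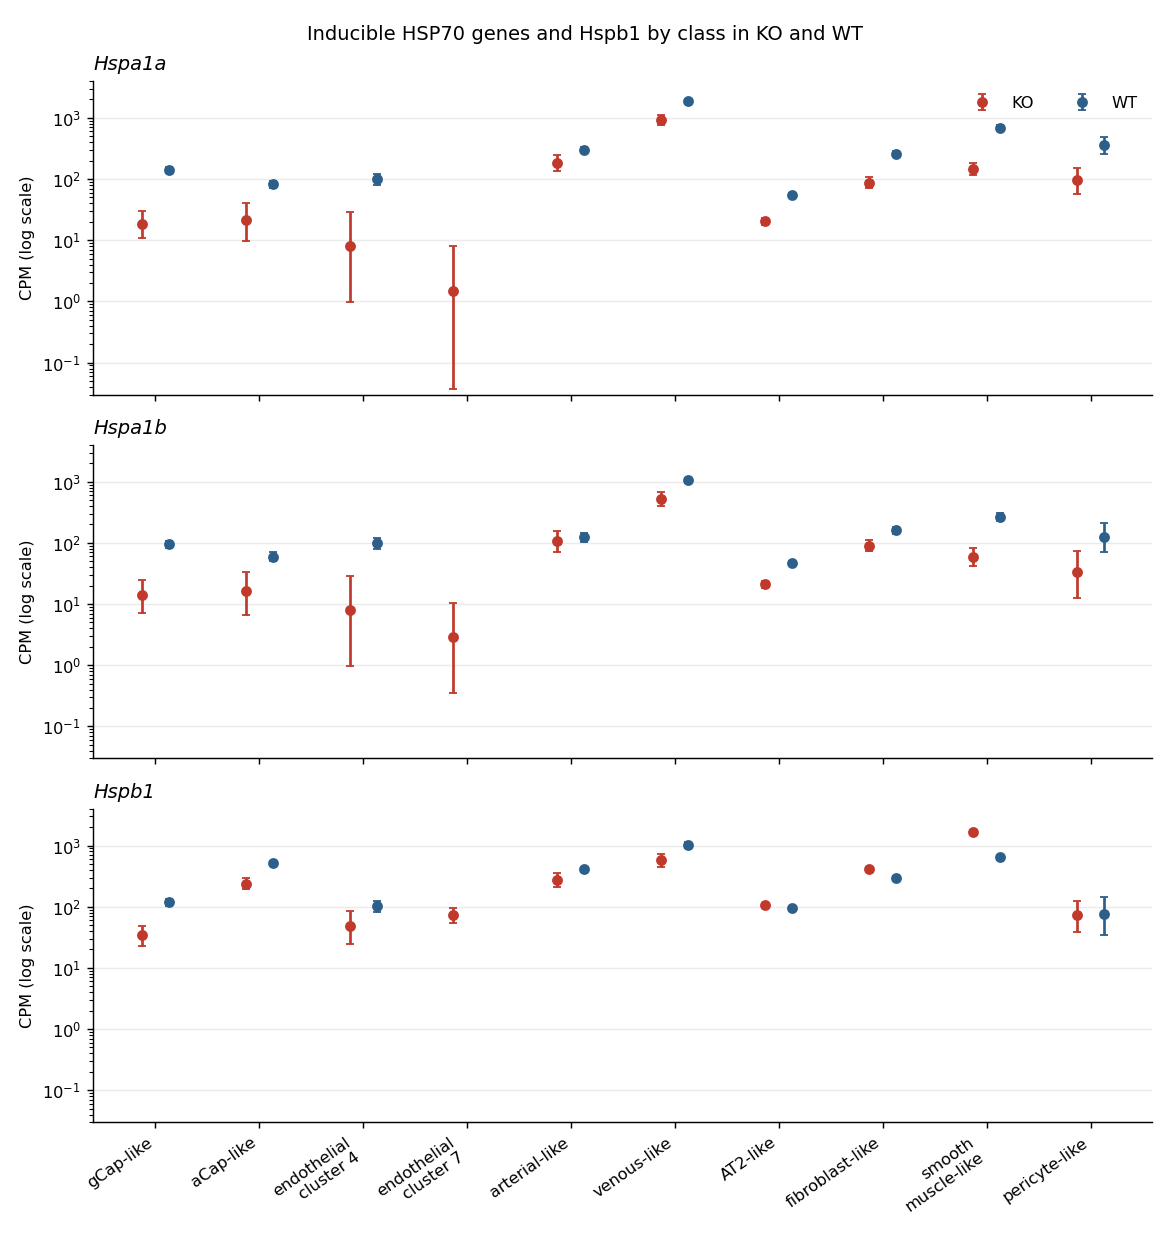
Levels of Hspa1a, Hspa1b and Hspb1 (CPM, log axis) in each class, KO left of WT; points are sums over cells and bars are exact Poisson 95% intervals. KO lies below WT for Hspa1a and Hspa1b in every class with both libraries, with overlapping intervals for Hspa1b in arterial-like and pericyte-like cells. With intervals apart, KO Hspb1 lies below WT in gCap-like, aCap-like, arterial-like and venous-like cells and above it in smooth muscle-like and fibroblast-like cells. Cluster 7 has a KO level only.

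Hspa1a was lower in KO in all 6 classes compared. In gCap-like cells it had 18.7 CPM in KO (10.7 to 30.4, 16 UMIs) and 142 CPM in WT (127 to 159, 303 UMIs), a KO over WT ratio of 0.132 (0.0742 to 0.217). In aCap-like cells it had 21.1 CPM in KO and 82.0 CPM in WT, a ratio of 0.257 (0.116 to 0.498). Intervals of the libraries did not overlap in either capillary class, but with each cell thinned to 1500 UMIs the aCap-like call was lost, with 2 UMIs in KO and 50 in WT. Endothelial cluster 4 had 8.04 CPM in KO, from 2 UMIs, and 99.5 CPM in WT, from 96 UMIs, a ratio of 0.0808 with a wide interval of 0.00965 to 0.3. The contents of this cluster also differed between the libraries: the 6 erythrocyte markers summed to 113 CPM in KO, with 4 at 10 CPM or more, and 10863 CPM in WT, with 5, and the 12 AT2 markers to 5160 CPM in KO and 7888 CPM in WT. The part of these marker differences in the chaperone values was not tested. The ratio was 0.367 (0.314 to 0.426) in AT2-like cells, with 20.3 CPM in KO and 55.2 CPM in WT. The difference was therefore not limited to the endothelial classes. Fibroblast-like cells had 87.2 CPM in KO and 261 CPM in WT, a ratio of 0.334 (0.261 to 0.422). Smooth muscle-like cells had 145 CPM in KO and 691 CPM in WT, a ratio of 0.210 (0.163 to 0.267). In the classes without a call because of few cells, Hspa1a had 186 CPM in KO and 299 CPM in WT arterial-like cells, and 96.1 CPM in KO and 356 CPM in WT pericyte-like cells. In cluster 7 there was 1 Hspa1a UMI among 123 KO cells, 1.46 CPM.

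Hspa1b, which encodes nearly the same protein, was also called lower in KO in all 6 classes. It had 14.0 CPM in KO and 94.4 CPM in WT gCap-like cells, a ratio of 0.149 (0.0756 to 0.266). AT2-like cells had 21.0 CPM in KO and 46.7 CPM in WT, a ratio of 0.449 (0.385 to 0.523). The ratio nearest to 1 was that of fibroblast-like cells, 0.565 (0.437 to 0.727), with 90.1 CPM in KO and 159 CPM in WT. The ratios were 0.275 in aCap-like cells, with 16.4 CPM in KO and 59.5 CPM in WT, and 0.223 in smooth muscle-like cells, with 59.7 CPM in KO and 267 CPM in WT. With each cell thinned to 1500 UMIs Hspa1b kept its direction but lost the call in aCap-like cells (2 KO and 36 WT UMIs), AT2-like cells (19 and 49) and fibroblast-like cells (7 and 31). Cluster 4 had 2 KO UMIs and 96 WT UMIs of Hspa1b, the same numbers as of Hspa1a. The transcripts of both genes are alike over most of their length, with 90.9% of 2779 aligned bases identical, but this 3' chemistry reads their ends: over the last 600 bases 60.8% of aligned bases were identical, and none of the 510 runs of 91 bases at the end of Hspa1a occurred in Hspa1b. How reads shared by both were assigned was not analysed here.

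Shares of cells with a UMI, after each cell was thinned to 1500 UMIs, showed the same direction. Hspa1a was seen in 1 of 155 KO gCap-like cells, 0.645% (0.0163 to 3.54), and in 57 of 485 WT gCap-like cells, 11.8% (9.02 to 15.0). Without thinning the shares were 3.80% in KO, at a median of 5364 UMIs per cell, and 21.1% in WT, at a median of 4260. The smooth muscle-like class had the largest thinned shares among the 6 classes, 25.9% in KO and 53.6% in WT. In AT2-like cells 1.85% of KO cells and 7.29% of WT cells had a UMI. Among 119 thinned cells of cluster 7 none had a UMI at this depth, where 3 counts would be 2.52% and the Clopper-Pearson upper limit is 3.05%. None of these classes is known to lack the gene, so no share of a class without it could be set beside these values. As a measure of free RNA, the level of Sftpc, which AT2 cells use to make surfactant protein C, was in KO gCap-like cells 0.798% of its KO AT2-like level and in WT gCap-like cells 1.57% of its WT AT2-like level.

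**Figure D2:**
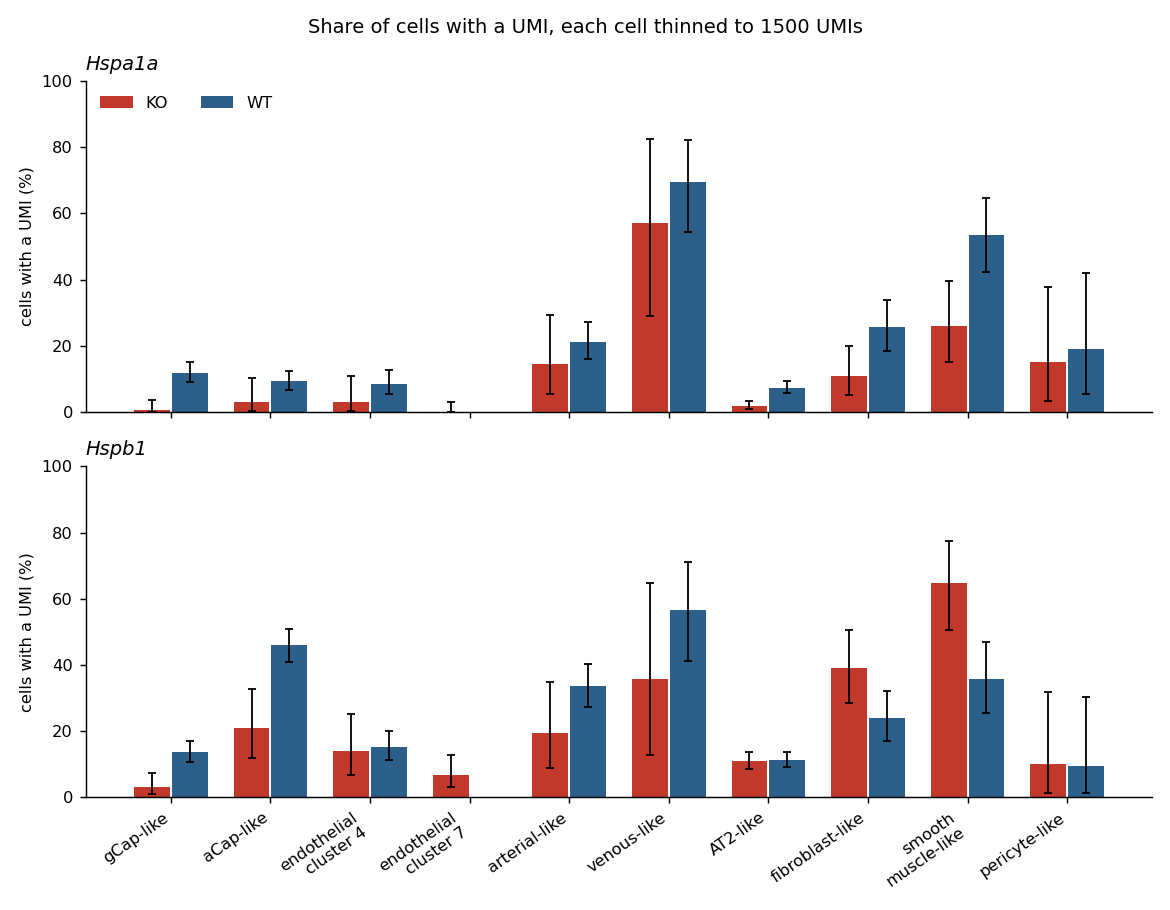
Share of cells with a UMI of Hspa1a (top) and Hspb1 (bottom) in each class after thinning each cell to 1500 UMIs, KO left of WT, in percent; bars are shares and lines are exact Clopper-Pearson 95% intervals. For Hspa1a the KO share is below the WT share in every class with both libraries, with overlapping intervals in all but the gCap-like, AT2-like and smooth muscle-like classes; for Hspb1 the smooth muscle-like KO share of 64.8% is above the WT share of 35.7%.

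Hspb1, the small heat shock protein that also binds actin filaments, went in opposite directions in capillary and smooth muscle-like cells. In gCap-like cells it had 33.9 CPM in KO (22.7 to 48.7) and 118 CPM in WT (104 to 133), a ratio of 0.288 (0.189 to 0.424), and was called lower. In aCap-like cells, which had the higher level of the capillary classes in both libraries, it had 239 CPM in KO and 526 CPM in WT, a ratio of 0.453 (0.367 to 0.555), and was called lower. In smooth muscle-like cells it was called higher, with 1675 CPM in KO (1569 to 1786) and 642 CPM in WT (581 to 707), a ratio of 2.61 (2.32 to 2.94). The 5 smooth muscle-like cells with most Hspb1 UMIs held 45.3% of them in KO and 37.5% in WT, and without them the levels were 1089 CPM in KO and 451 CPM in WT. The thinned shares had the same directions, with 3.23% of KO and 13.6% of WT gCap-like cells, 20.9% of KO and 45.9% of WT aCap-like cells, and 64.8% of KO and 35.7% of WT smooth muscle-like cells.

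The other classes gave no call for Hspb1. Among those with too few cells for a call, arterial-like cells had 276 CPM in KO (213 to 353) and 413 CPM in WT (374 to 454). Venous-like cells had 572 CPM in KO (447 to 722) and 1027 CPM in WT (920 to 1143). Both were lower in KO with intervals apart, while pericyte-like cells had 73.5 CPM in KO and 76.2 CPM in WT. Cluster 4 had 48.3 CPM in KO (24.9 to 84.3) and 103 CPM in WT (83.4 to 125), whose intervals overlapped. It was called lower there without the 5 highest cells (29.2 CPM in KO and 79.9 CPM in WT) and with KO cells of Y-linked UMIs alone (33.3 CPM, against 103 CPM in WT). These last were 37 KO cells, fewer than the 50 of the main rule. The 5 cells left out are a larger share of the 77 KO cells than of the 327 WT cells. AT2-like cells had 105 CPM in KO and 95.1 CPM in WT, a ratio of 1.11 (1.02 to 1.20). In fibroblast-like cells the level was 408 CPM in KO and 292 CPM in WT, a ratio of 1.40 (1.21 to 1.61), which is below the fold needed. Under 5 alternatives, such as the looser cell filter (385 CPM in KO and 215 CPM in WT), it was called higher there. These cells came from a pair of clusters with very different levels. Cluster 9 had 1227 CPM in KO and 785 CPM in WT (41 and 67 cells), and cluster 8 had 102 CPM in KO and 24.6 CPM in WT (50 and 69 cells). KO was thus above WT within each cluster. Cluster 9 held 280250 of the 1032263 fibroblast-like UMIs in KO and 440836 of 1254952 in WT, so the pooled ratio also carries this mix. No call was made for the clusters on their own.

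Smooth muscle-like cells were the class with most members higher in KO. Besides Hspb1, Hspa8 had 1398 CPM in KO (1301 to 1500) and 662 CPM in WT (600 to 729), a ratio of 2.11 (1.87 to 2.38). Hsph1, the HSP110 nucleotide exchange factor, had 67.0 CPM in KO, from 37 UMIs, and 22.0 CPM in WT, from 14 UMIs, a ratio of 3.04 (1.61 to 6.09), a call that was lost with thinned cells (6 KO and 2 WT UMIs). Hspa1a and Hspa1b were lower in the sums of this class, so its HSP70 members differed in opposite directions, the inducible pair down and the constitutive gene up. Whether single KO cells showed both was not tested. Marker genes moved in this class too: the summed level of the 10 smooth muscle markers, of which 9 reached 10 CPM in each library, was 34588 CPM in KO and 26076 CPM in WT. The 16 fibroblast markers summed to 11101 CPM in KO, with 14 at 10 CPM or more, and 8077 CPM in WT, with 12. The 9 pericyte markers, all at 10 CPM or more, summed to 2629 CPM in KO and 2543 CPM in WT, and the 13 endothelial markers to 208 CPM in KO, with 5 at 10 CPM or more, and 886 CPM in WT, with 12. Their part in the chaperone values was not tested.

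Outside smooth muscle-like cells Hspa8 stood above WT in KO in every class compared without reaching 1.5-fold, with ratios of 1.38 in gCap-like, 1.25 in aCap-like, 1.28 in cluster 4, 1.12 in AT2-like and 1.43 in fibroblast-like cells. In gCap-like cells its level was 1225 CPM in KO (1152 to 1302) and 886 CPM in WT (847 to 927). The share of thinned gCap-like cells with an Hspa8 UMI was 81.3% in KO and 69.1% in WT. Across the 12 sums of class and library, Hspa8 and Hspa1a had a Pearson r of -0.59 and Hspa8 and Hspa1b of -0.71 on log2(CPM + 10), while Hspa1a and Hspa1b had 0.97. These sums share their library, depth and cells' handling, and the values are descriptions.

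The cytosolic HSP90 genes behaved differently from each other. Hsp90aa1, the inducible HSP90, was called higher in KO in fibroblast-like cells, with 387 CPM in KO (350 to 427) and 237 CPM in WT (211 to 266), a ratio of 1.63 (1.40 to 1.90), and lost that call with thinned cells (407 CPM in KO and 256 CPM in WT). Markers of other cell types differed in these fibroblast-like cells. The 6 mesothelial markers summed to 257 CPM in KO, with 5 at 10 CPM or more, and 0.797 CPM in WT, where 5 of them had no UMI. The 6 erythrocyte markers summed to 1758 CPM in KO and 72.5 CPM in WT, and the 12 arterial markers to 24014 CPM in KO and 11275 CPM in WT, mostly Mgp, at 23194 CPM in KO and 10591 CPM in WT. Their part in the chaperone values of this class was not tested. Hsp90aa1 was also called higher in aCap-like cells, with 243 CPM in KO (199 to 295) and 157 CPM in WT (141 to 174), a ratio of 1.55 (1.24 to 1.94). This second call lay close to the 1.5-fold limit. Without the 5 highest cells of each library 86 of the 104 KO UMIs remained, and the levels were 211 CPM in KO and 148 CPM in WT. Those 5 cells are a larger share of the 68 KO cells than of the 410 WT cells. KO cells with Y-linked UMIs alone had 202 CPM. These were 47 KO cells, fewer than the main rule asks. Neither alternative met the rule for a call. In the remaining classes Hsp90aa1 had 145 CPM in KO and 162 CPM in WT gCap-like cells, 113 and 129 CPM in cluster 4, 415 and 361 CPM in AT2-like cells, and 518 and 393 CPM in smooth muscle-like cells. Hsp90ab1, the constitutive HSP90, was not called in any class. Its ratios lay between 0.942 in smooth muscle-like cells and 1.20 in cluster 4, and in gCap-like cells it had 834 CPM in KO and 829 CPM in WT.

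Dnajb1, the J-domain partner of inducible HSP70, was not called in any class. It had 39.8 CPM in KO and 29.1 CPM in WT gCap-like cells, a ratio of 1.37 (0.872 to 2.11), and 27.2 CPM in KO and 22.3 CPM in WT AT2-like cells. In smooth muscle-like cells it had 23.5 CPM in KO, from 13 UMIs, and 36.2 CPM in WT, from 23 UMIs, a ratio of 0.651 (0.303 to 1.34). With the stricter cell filter Dnajb1 was called lower in that class, at 15.0 CPM in KO (6 UMIs) and 53.8 CPM in WT (24 UMIs). That filter left 38 KO cells in the class, fewer than the main rule asks. Without the 5 highest cells Dnajb1 was called lower in cluster 4, with no UMI in KO and 26 in WT. Depth limits what can be seen for this gene, since these intervals include differences of 1.5-fold in the smaller classes. Hsph1 had 12.9 CPM in KO and 12.7 CPM in WT gCap-like cells and 61.0 CPM in KO and 39.0 CPM in WT fibroblast-like cells, a ratio of 1.56 (1.06 to 2.32) whose levels overlapped. In AT2-like cells it stayed below 10 CPM, with 6.78 CPM in KO and 7.59 CPM in WT.

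The mitochondrial chaperonin pair was not called in any class. Hspd1, which forms the chamber, had 77.2 CPM in KO and 64.8 CPM in WT gCap-like cells, 79.0 and 74.1 CPM in AT2-like cells and 112 and 82.9 CPM in fibroblast-like cells. In aCap-like cells it was called lower without the 5 highest cells, with 30.7 CPM in KO and 73.2 CPM in WT. Those 5 cells are a larger share of the 68 KO cells than of the 410 WT cells. In fibroblast-like cells Hspd1 was called higher with KO cells of Y-linked UMIs alone, at 133 CPM against 82.9 CPM in WT. Hspe1, its lid, had 77.2 CPM in KO and 73.8 CPM in WT gCap-like cells, 131 and 137 CPM in AT2-like cells and 206 and 165 CPM in smooth muscle-like cells. Hspd1 and Hspe1 had a Pearson r of 0.84 with each other over the 12 sums, and Hspe1 had 0.92 with Hsp90aa1.

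Counted together, 3 of the 10 members were lower in KO gCap-like cells and none higher, in a class where 2.42% of 8473 genes were called lower and 1.38% higher. In aCap-like cells 3 were lower and 1 higher, against 2.0% and 1.65% of 8360 genes. In cluster 4, 2 were lower and none higher, against 1.45% and 1.42% of 8498 genes. In AT2-like cells 2 of the 9 measured were lower and none higher, against 2.38% and 1.88% of 7358 genes. Fibroblast-like cells had 2 lower and 1 higher, against 6.35% and 3.37% of 8596 genes. Smooth muscle-like cells had 2 lower and 3 higher, against 3.78% and 2.04% of 8364 genes. The lower calls were Hspa1a and Hspa1b in each class, joined by Hspb1 in the gCap-like and aCap-like classes. The median log2 ratio of the members was 0.02 in gCap-like cells, -0.08 in aCap-like cells and 0.09 in AT2-like cells, where that of all genes was -0.03, -0.03 and 0.00 in the same order. It lay below that of all genes in cluster 4 (-0.37 against 0.00) and above it in fibroblast-like cells (0.33 against -0.13) and smooth muscle-like cells (0.31 against -0.13).

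**Figure D3:**
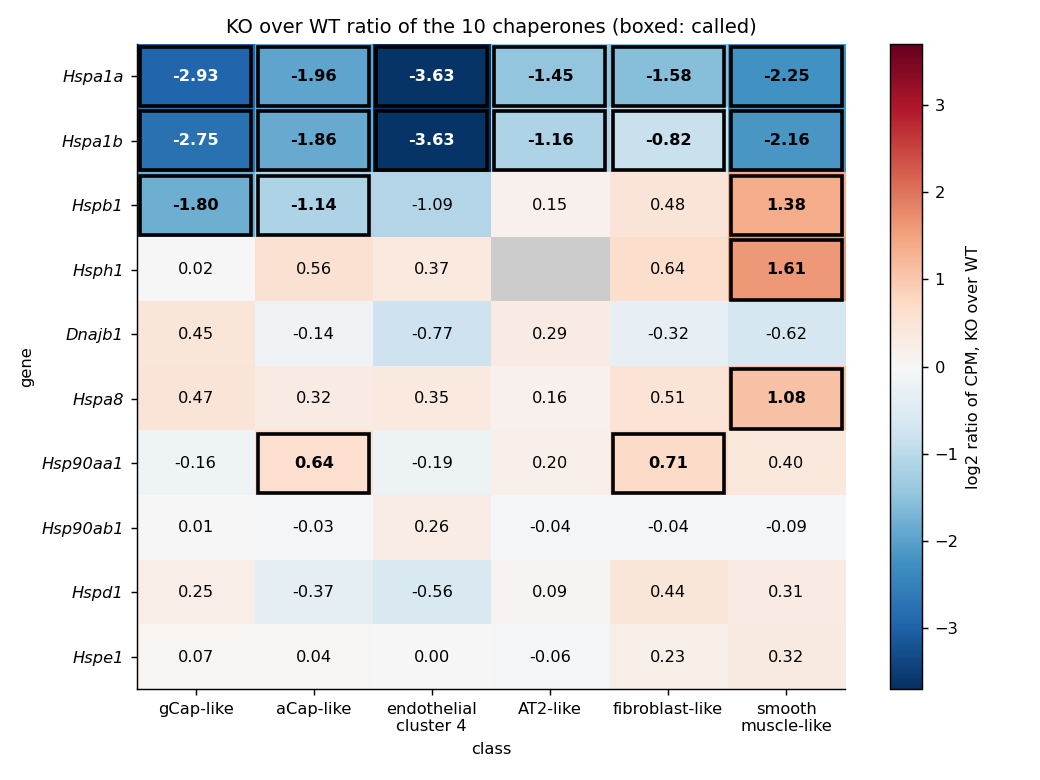
log2 ratio of CPM, KO over WT, of the 10 chaperones (rows) in the 6 classes (columns); blue is lower in KO, red is higher, a box marks a call and grey marks Hsph1 in AT2-like cells, which is below 10 CPM. The 2 top rows, Hspa1a and Hspa1b, are boxed blue in all 6 columns, and the only boxed red cells are 3 in the smooth muscle-like column and Hsp90aa1 in aCap-like and fibroblast-like cells.

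The KO library holds cells with Xist and cells with Y-linked transcripts, so the members were set out by these. In AT2-like cells Hspa1a had 11.5 CPM (7.0 to 17.7) in 84 KO cells with Xist alone, 23.2 CPM (19.9 to 26.8) in 398 KO cells with Y-linked UMIs alone, and 55.3 CPM (51.4 to 59.4) in 761 WT cells with Xist alone. Both kinds of KO cell lay below the WT cells, and the KO cells with Xist, which match the WT cells in this respect, lay lowest. Fibroblast-like cells had 71.6 CPM in 20 KO cells with Xist, 79.4 CPM in 51 KO cells with Y-linked UMIs, and 264 CPM in 124 WT cells with Xist. For gCap-like and smooth muscle-like cells there were not 20 KO cells with Xist alone. Their KO cells with Y-linked UMIs alone had 17.1 CPM and 141 CPM of Hspa1a, while the WT cells with Xist alone had 142 CPM and 709 CPM, so for these classes sex and library cannot be told apart.

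Hspb1 in AT2-like cells differed more between the kinds of KO cell than between the libraries. It had 225 CPM (203 to 248) in KO cells with Xist, 82.2 CPM (76.0 to 88.8) in KO cells with Y-linked UMIs and 96.3 CPM (91.1 to 102) in WT cells with Xist. The pooled KO level of 105 CPM, close to WT, therefore averaged cells above and cells below the WT level. The KO cells with Xist came mainly from cluster 0 of the AT2-like cells, 71 of 84, and within that cluster the levels were 259 CPM, 109 CPM and 140 CPM in the same order. Markers of other cells moved within cluster 0 as well. The 6 club cell markers, 4 of them at 10 CPM or more in KO and 2 in WT, summed to 7760 CPM in KO and 386 CPM in WT, nearly all from Scgb1a1. By kind of cell their sum was 317 CPM in KO cells with Xist and 10678 CPM in KO cells with Y-linked UMIs. In WT cells with Xist it was 395 CPM. The 6 mesothelial markers, of which Krt19, also an epithelial keratin, was the one above 10 CPM, summed to 379 CPM, 128 CPM and 111 CPM in that order. In the same order the leukocyte markers summed to 9253.44 CPM, 20098.5 CPM and 20624.5 CPM. The AT2 markers summed to 219285 CPM, 243221 CPM and 240169 CPM, and the fibroblast markers to 762 CPM, 556 CPM and 618 CPM. The part of any of these markers in the Hspb1 values was not tested. Hspa8 had 891 CPM, 980 CPM and 862 CPM in the same 3 kinds of AT2-like cell. In cluster 7, Hspa1a had no UMI in 58 KO cells with Xist and 4.10 CPM in 45 KO cells with Y-linked UMIs, and Hspb1 had 107 CPM and 41.0 CPM.

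**Figure D4:**
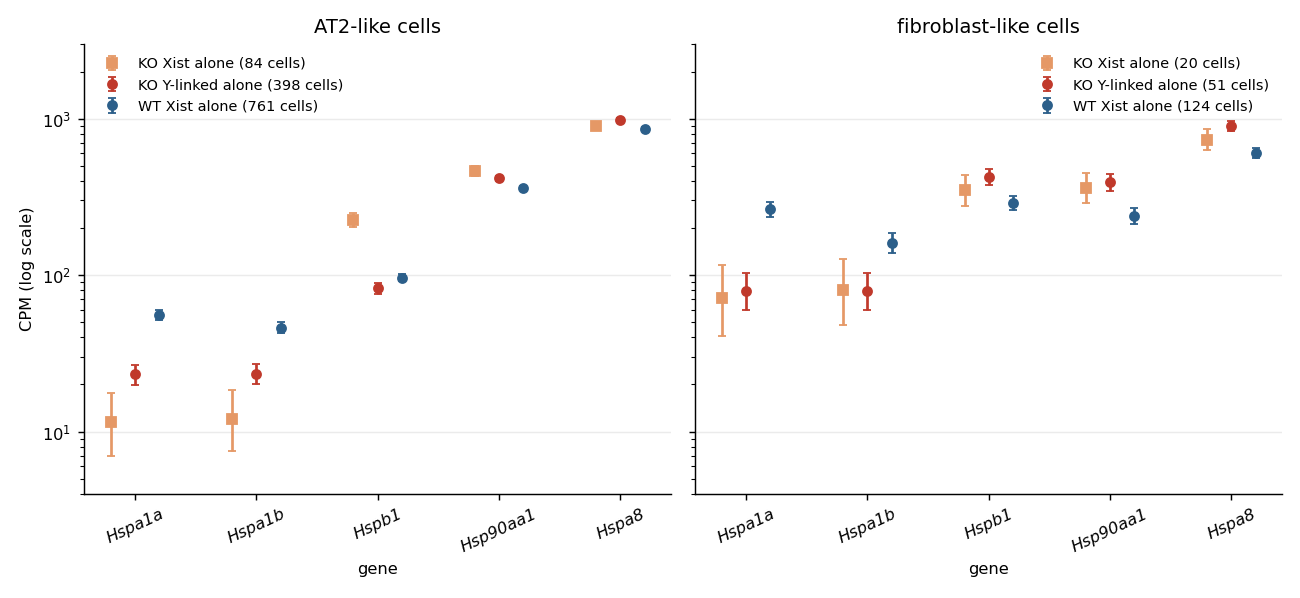
Levels of 5 chaperones (CPM, log axis) in AT2-like cells (left) and fibroblast-like cells (right), for KO cells with Xist UMIs alone, KO cells with Y-linked UMIs alone and WT cells with Xist UMIs alone; bars are exact Poisson 95% intervals. Hspa1a and Hspa1b lie below WT in both kinds of KO cell of both classes, and Hspb1 in AT2-like cells is highest in KO cells with Xist, at 225 CPM.

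Whether the members are high in the same cells was read from WT cells thinned to 1500 UMIs. Hspb1 was higher in cells with an Hspa1a or Hspa1b UMI than in cells without one in several classes. In AT2-like cells it had 232 CPM in 92 cells with such a UMI and 74.4 CPM in 717 cells without, a ratio of 3.12 (2.00 to 4.75). In arterial-like cells the levels were 959 CPM in 57 cells with one and 290 CPM in 161 cells without, a ratio of 3.31 (2.38 to 4.62). The ratio was 2.14 (1.27 to 3.51) in gCap-like cells and 2.23 (1.41 to 3.56) in fibroblast-like cells. It was 1.18 (0.856 to 1.60) in aCap-like cells and 1.60 (0.862 to 3.12) in smooth muscle-like cells, intervals that include 1. The AT2-like and fibroblast-like classes each pool clusters with different Hspb1 levels, as given above. The part of that mix in their ratios, in either direction of the split, was not tested. The reverse split, by an Hspb1 UMI, gave ratios of Hspa1a of 4.48 (2.68 to 7.34) in AT2-like and 2.40 (1.61 to 3.59) in arterial-like cells, but 1.18 (0.646 to 2.03) in gCap-like and 1.25 (0.637 to 2.32) in fibroblast-like cells. For Hspa1b the reverse ratio was 1.25 (0.589 to 2.41) in gCap-like and 0.757 (0.254 to 1.89) in fibroblast-like cells, so in these classes only the first split gave an interval above 1. In aCap-like cells the reverse ratio was 1.92 (1.05 to 3.6) for Hspa1a and 0.842 (0.404 to 1.71) for Hspa1b. For Hspa8 the ratio was 1.03 (0.836 to 1.27) in gCap-like cells and 1.56 (1.32 to 1.84) in AT2-like cells. In KO, only AT2-like cells had enough cells with an Hspa1a or Hspa1b UMI, 25 of 542, and these held 1 Hspb1 UMI, a ratio of 0.279 (0.00698 to 1.61).

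The genes whose levels over the 12 sums followed the inducible HSP70 pair most closely, of 3643 genes ranked by Pearson r on log2(CPM + 10), were Egr1 (0.93), Fos (0.91), Svil (0.86), Snw1 (0.86) and Acat1 (0.85). Egr1 and Fos are immediate early genes, transcription factors made soon after many stimuli, the dissociation of tissue among them. In gCap-like cells Egr1 had 17.6 CPM in KO and 191 CPM in WT, and Fos had 11.7 CPM in KO and 95.4 CPM in WT. Both were called lower in KO in all 6 classes. They were picked for likeness to the HSP70 pair over these same sums, so this is not a separate result. Of the list of 14 immediate early genes, 5 of 13 measured were lower and none higher in gCap-like cells, with a median log2 ratio of -0.47. Fibroblast-like cells had 11 of 14 lower and none higher, with a median of -0.96, and smooth muscle-like cells also 11 of 14 lower and none higher, with a median of -0.94. In aCap-like cells 2 of 12 were lower and 1 higher, in cluster 4 there were 4 of 13 lower and none higher, and in AT2-like cells 3 of 14 were lower and 2 higher. Over all genes measured, 2.42% were lower and 1.38% higher in gCap-like, 6.35% and 3.37% in fibroblast-like, and 3.78% and 2.04% in smooth muscle-like cells. These shares were 2.0% and 1.65% in aCap-like cells, 1.45% and 1.42% in cluster 4, and 2.38% and 1.88% in AT2-like cells. Klf6, chosen after its values were seen, had 398 CPM in KO and 160 CPM in WT aCap-like cells. The part of these genes, or of the handling of the lungs, in the chaperone values was not tested.

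**Figure D5:**
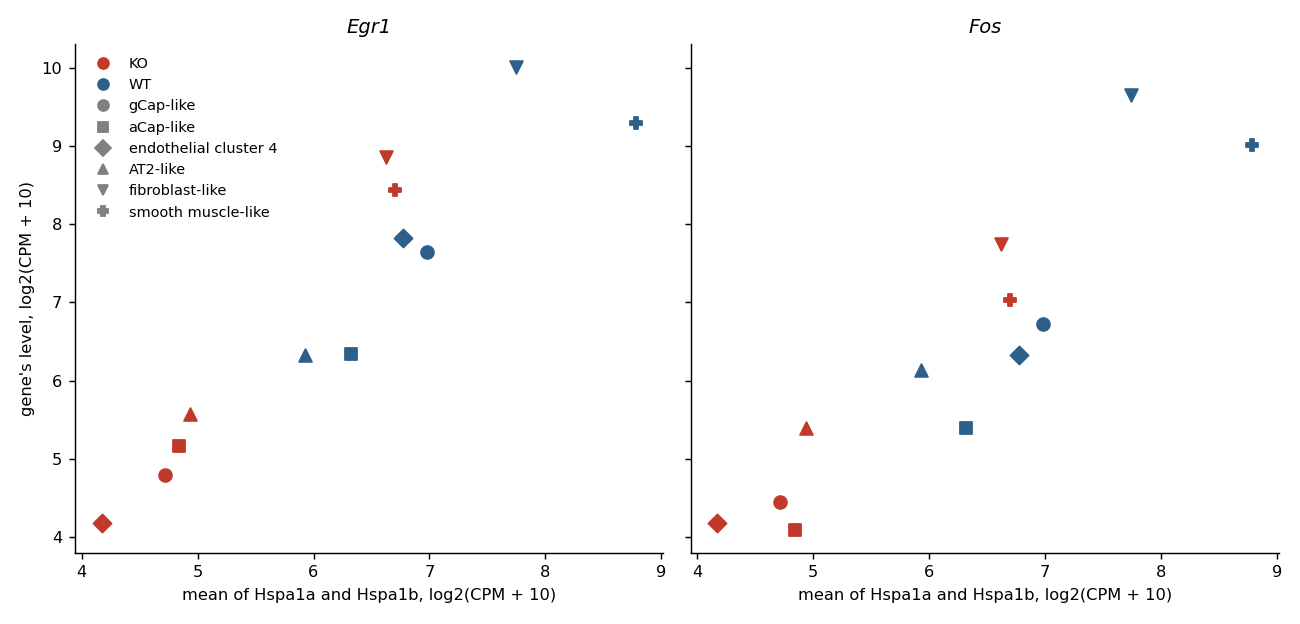
Level of Egr1 (left) and Fos (right) against the mean level of Hspa1a and Hspa1b, both as log2(CPM + 10), in the 12 sums of 6 classes and 2 libraries; colour gives the library and shape the class. Within each class the KO point lies to the left of and below the WT point in both panels. Both genes were picked for their likeness to the pair over these same sums.

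Of the other chaperone lists, no gene was called lower in KO gCap-like cells, where 2.42% of 8473 genes were called lower and 1.38% higher. At these shares few calls would be seen in lists of this size. Among 5 measured other HSP70 and HSP110 genes, 1 was higher in KO, Hspa4, an HSP110 relative, with 128 CPM in KO and 79.4 CPM in WT. Hspa14 and Hspa4l, not called, had ratios of 0.784 (0.536 to 1.13) and 0.809 (0.493 to 1.28). None of 15 measured J-domain co-chaperones was called, and Dnaja1, an HSP70 partner, had 451 CPM in KO and 312 CPM in WT, a ratio of 1.45 (1.27 to 1.64). Dnajb2, with 9.36 CPM in KO and 21.1 CPM in WT, had a ratio of 0.443 (0.180 to 0.949). Dnajc21 had a ratio of 0.667 (0.430 to 1.01). Of 20 co-chaperones of HSP70 and HSP90, Ahsa2 alone was called, with 45.6 CPM in KO and 23.5 CPM in WT. Bag4 had a ratio of 0.453 (0.184 to 0.972) and Bag2 one of 1.87 (0.807 to 4.21), neither called. None of 13 cytosolic chaperonin and prefoldin genes and none of 10 mitochondrial protein quality genes was called. Of 18 chaperones of the endoplasmic reticulum, Hyou1 alone was called, with 48.0 CPM in KO and 25.4 CPM in WT. Ddit3 had a ratio of 1.45 (0.806 to 2.56) and Dnajb9 one of 0.695 (0.466 to 1.01), neither called. None of 8 measured heat shock factors and other HSF1 targets was called in gCap-like cells. Serpinh1, the collagen chaperone, had 407 CPM in KO and 274 CPM in WT there, a ratio of 1.49 (1.30 to 1.70). It was called higher in KO aCap-like cells (ratio 1.68), cluster 4 (1.69) and smooth muscle-like cells (1.57). In AT2-like cells (1.15) and fibroblast-like cells (0.704) it was not called. In gCap-like cells the ratio was 0.655 (0.291 to 1.34) for Hsf2 and 1.35 (1.10 to 1.66) for Ier5.

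Small heat shock proteins other than Hspb1 were hardly measured in capillary cells but were present in smooth muscle-like cells. There 3 of 4 measured were higher in KO and none lower, against 2.04% and 3.78% of 8364 genes. Hspb7 had 250 CPM in KO and 67.6 CPM in WT, a ratio of 3.69 (2.61 to 5.33). Hspb2 had 331 CPM in KO and 170 CPM in WT, and Cryab, a small heat shock protein of muscle and lens, had 538 CPM in KO and 340 CPM in WT. In AT2-like cells Cryab was higher too, with 80.9 CPM in KO and 38.2 CPM in WT, and in fibroblast-like cells Hspb7 had 54.2 CPM in KO and 9.56 CPM in WT. Fkbp5, an HSP90 co-chaperone that glucocorticoids are known to raise, was higher in KO AT2-like cells, with 21.7 CPM in KO and 9.08 CPM in WT, and in KO fibroblast-like cells, with 118 CPM in KO and 58.2 CPM in WT. These genes of single classes, other than Cryab, were chosen after their values were seen.

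Acvrl1, the gene of the disease named in the title, had 1277 CPM in KO and 1334 CPM in WT gCap-like cells and 1743 CPM in KO and 1899 CPM in WT aCap-like cells, neither of them called. In cluster 7 it had 414 CPM in KO. In fibroblast-like cells it was called lower, with 70.7 CPM in KO and 115 CPM in WT. In AT2-like cells, with 3.21 CPM in KO and 16.0 CPM in WT, it averaged below 10 CPM and was outside the rule. A 3' tag shows whether transcripts end there, not whether a deleted exon is missing, and these values check no label.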

How the data were processed

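The deposited matrices give unnormalized UMI counts for each gene in each barcode; the submitters' processing notes name Cell Ranger 3.0.1 and mm10 for the steps the authors ran. They hold 2196 KO barcodes with 17864581 UMIs and 3482 WT barcodes with 25667220 UMIs. A barcode passed with 500 or more genes and no more than 10% of UMIs mitochondrial, 1326 in KO and 2745 in WT, and Scrublet, run per library, removed 11 and 16 doublets (0.830% and 0.583%). With scanpy 1.11.5 (Python 3.11.15), each cell was scaled to 10000 UMIs before the log transform, and variable genes, 2000 in all, were picked per library and combined. The genes of the lists were left out, and cells were clustered on 30 principal components and 20 neighbours with Leiden (leidenalg 0.10.2, igraph 0.11.9) at resolution 1. In a second step the 2198 genes that differed between the libraries within first-step classes were left out as well, which left 1387 genes.

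A cluster was named from marker genes, of which the files hold 156 of 158. To be named, a cluster had to have 3 markers that 10% or more of its cells held and that stood at least 2-fold above a reference (10 CPM added). At least 1 marker had to be among its top 10 genes. The reference was the median cluster, or the 10th percentile of clusters for endothelial markers. Endothelial subtypes were compared with the other endothelial clusters together, with a limit of 1.5-fold for gCap and 2-fold for the rest. Cell types, but not these subtypes, also needed summed markers of at least 1/5 of the highest cluster's. This naming rule was set after the first clusters had been seen. The members and lists were chosen with earlier results of these data known, and 125 of 126 list genes are in the files.

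Raw counts were summed per class and library. Ratios carry exact conditional binomial intervals, shares exact Clopper-Pearson intervals, and a count of 0 allows 3 counts of the total. Counts set the precision: gCap-like cells summed to 854469 UMIs in KO and 2128185 in WT, so that a gene at 10 CPM there rests on few UMIs. Thinning drew 1500 UMIs per cell with a fixed seed and left out cells with fewer, 3 KO and 8 WT gCap-like cells. Cells were read as Xist alone or Y-linked alone where the class had at least 20. The naming and counting steps were tested on simulated data. All 10 members are named in each class; from each other list, genes were named from the 3 with the largest absolute log2 ratio in gCap-like cells. The 5 genes most like Hspa1a and Hspa1b by Pearson r, among genes that averaged 50 CPM or more, were named too, and list genes chosen after their values were seen are marked as such. Acvrl1 is named for the disease. Gene positions are from GENCODE M21, which holds 98.7% of the 27998 gene identifiers. Alternatives were other cell filters, classes by marker genes alone, the first clustering, resolution 0.6, other scalings, leaving out the 5 highest cells of a gene, subtracting free RNA by Sftpc, and cells of 1 sex.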

Additional observations from a re-analysis of the deposited data

Results flagged for a closer look

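Hspb1 was flagged because its KO over WT ratio pointed in opposite directions in different classes. On the log2 scale it was -1.797 in gCap-like cells and -1.141 in aCap-like cells, against 1.384 in smooth muscle-like cells. With 1 library per group the difference between these classes was not tested, and the 3 intervals cover counting error only. The direction in each of these 3 classes was the same under every alternative that gave a value for it.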

How the results depend on the processing

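Of 636 log2 ratios recomputed under an alternative, 572 stayed within the counting error, 64 moved further and no called ratio changed its direction. The log2 ratio of Hspa1a ranged from -3.09 to -2.29 in gCap-like, from -2.02 to -1.55 in aCap-like, from -2.31 to -1.25 in AT2-like, from -1.98 to -1.45 in fibroblast-like and from -2.39 to -2.09 in smooth muscle-like cells. That of Hspb1 ranged from -2.50 to -1.36 in gCap-like, from -1.46 to -1.07 in aCap-like and from 0.94 to 1.87 in smooth muscle-like cells, and from -0.21 to 1.22 in AT2-like cells, where it was not called except among Xist-only cells. Hsp90aa1 in smooth muscle-like cells, which was not called, had -0.44 when thinned.

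Counts of members called lower in KO moved under thinning to 1500 UMIs, to 1 in aCap-like, 1 in AT2-like and 1 in fibroblast-like cells; thinning keeps few UMIs. Leaving out the 5 highest cells gave 4 lower in cluster 4, adding Hspb1 and Dnajb1, and added Hspd1 in aCap-like cells. In both classes 5 cells are a larger share of the KO cells than of the WT cells. KO cluster 4 had 5 Dnajb1 UMIs in all, so none could remain. The stricter filter added Dnajb1 in smooth muscle-like cells, and Y-only KO cells added Hspb1 in cluster 4. In both cases the KO cells were fewer than the main rule asks. Counts called higher moved to 1 in gCap-like cells with classes by marker genes alone, to 0 in aCap-like cells without the 5 highest cells and with Y-only KO cells, and to 1 in AT2-like cells with Xist-only cells. In fibroblast-like cells 2 were called higher with the looser filter, the stricter filter, marker genes alone, the first clustering, every cell weighing the same and Y-only KO cells, 3 after centring on the median gene, and 0 when thinned; the cause was not tested. The first clustering named no gCap-like class, and cluster 4 has no value where cells were clustered again. No paired analysis was possible because each group is 1 library. Depth limits Dnajb1 and Hsph1, and also Hspa1a in KO endothelial cells, where its level rests on 2 to 16 UMIs in the classes compared.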

Other observations

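An unnamed cluster of 25 KO and 82 WT cells, led by ribosomal protein pseudogenes and genes of myeloid cells and with few UMIs per cell (medians of 1874 in KO and 1940 in WT), had a chaperone pattern unlike that of the named classes. Hsp90aa1 stood at 1162 CPM in KO and 1648 CPM in WT cells, Hspd1 at 347 CPM in KO and 620 CPM in WT, Hspe1 at 449 CPM in KO and 512 CPM in WT, and Dnajb1 at 184 CPM in KO and 169 CPM in WT. Its Hspa8 level was 326 CPM in KO and 413 CPM in WT, below that of each class compared. Mitochondrial UMIs had medians of 0.448% in KO and 0.797% in WT cells, and 9 WT cells there had Y-linked UMIs alone.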
